A study of Mus musculus with 2 samples.

Results

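The genes described here encode the proteins of the cytosolic ribosome, and their expression was compared between 1 array of LSK cells from nondiabetic mice and 1 array of LSK cells from diabetic mice. They were taken by symbol (Rpl and Rps genes and the P stalk genes, without pseudogenes and without the Rps6k kinases). The rule uses no measured value, but it was set with earlier results of these data known. This gave 80 genes of the 21360 that could be named on the arrays, 49 for proteins of the large subunit and 31 for proteins of the small subunit. They were read by 167 of the 28319 named probes, 107 for the large and 60 for the small subunit. Rpl37 had no probe that could be named.

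LSK cells are bone marrow cells without the surface markers of mature blood lineages (Lineage-) that carry Sca-1 and c-kit, and they hold hematopoietic stem cells and early progenitors. Both arrays are from C57BL/6J mice. The nondiabetic array stands for 3 mice and the diabetic array for 3 mice made diabetic with streptozotocin (STZ), a toxin of pancreatic beta cells. The study set out to compare gene expression between these conditions. The labels call both sets of mice female, whereas the methods describe male mice for the STZ experiments. Whether the animals were pooled before extraction, their age, and the time after STZ are not given for these arrays in the sources used here. According to the methods, mononuclear bone marrow cells were freed of dead cells, stained and sorted. From each sample 8.3 ng of total RNA was amplified as cDNA, labelled with Cy3 and hybridized to a 1-colour Agilent mouse array.

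Ribosomal proteins coat and fold the ribosomal RNA of both subunits. The small subunit reads the messenger RNA, and the large subunit joins the amino acids and passes the new chain out through a tunnel. Most mRNAs for ribosomal proteins begin with a run of pyrimidines (C and T in the DNA), the TOP sequence, through which mTOR signalling and Larp1 control their translation. Hematopoietic stem cells are known for a low rate of protein synthesis, and inherited loss of a single copy of several of these genes causes Diamond-Blackfan anemia, a failure of red cell formation.

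Because each condition has 1 array, there is no replicate error and no test, and every difference below describes these arrays. Differences are given as log2 of diabetic over nondiabetic intensity, after each array was divided by its own 75th percentile, and intensities are given before that scaling. Intensity depends on the probe, so that levels of different genes are not ranked. A probe printed at least 5 times on the array gave a median SD of 0.13 (log2) between the ratios of its spots, over 237 such probes, and the scanner software gave the ratios of the members a median error of 0.20 (log2). Both measure the hybridization and not the mice. On bulk RNA, fewer cells of a type and less RNA per cell cannot be told apart.

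The software flagged 62.7% of the nondiabetic and 63.9% of the diabetic array's spots as well above background, and both arrays came from 1 slide and 1 scan. All 11 LSK and pan-leukocyte genes that were looked up were well above background on both arrays. Among them were Kit, which encodes c-kit (4635 and 4735), and Ly6a, which encodes Sca-1 (475 and 701). Of these 11, Mecom was at least 2-fold lower in the diabetic sample (182 and 86.1, -1.20), and 0 were at least 2-fold higher. Ratios were above 0 in 7 and below 0 in 4, the latter including Ptprc (245 and 136) and Procr (1788 and 1290). Of 18 genes of mature blood lineages, stroma and endothelium, 11 were also well above background on both arrays, 2 in the nondiabetic sample alone and 5 in neither. The myeloid antigen gene Itgam had an intensity of 34686 in the nondiabetic and 35189 in the diabetic sample. At least 2-fold higher in the diabetic sample were Pecam1 (162 and 936), Cd79a (39.3 and 121), Hba-a1 (1984 and 4967) and Hbb-b1 (102 and 225). Cd3g was lower (25.4, and 2.11, not well above background). Over all genes with a ratio, 11.0% were higher and 10.1% lower by 2-fold or more. Pecam1, Cd79a, Hbb-b1, Cd3g and Mecom were read under an intensity of 1000, where 12.5% of all probes were higher and 12.5% lower. Hba-a1 was read above it, where 1.73% of genes were higher and 1.02% lower. The part of these marker genes in the values of the ribosomal protein genes was not tested.

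The starts of 11 members are shown because the TOP sequence lies at the first base of the mRNA and because the values of these genes are described below. They are examples picked after the values were known and not a ranking, and no start was at hand for Rpl3, Rpl21 and Rplp1. Each is 10 bases before to 20 bases after an annotated transcription start of RefSeq (GRCm38.p6), 5′ to 3′ on the gene's strand, with the longest run of C and T that touches the 10 bases on either side of the start in capitals.
Rps18 (chr17:33955646-33955675, minus strand): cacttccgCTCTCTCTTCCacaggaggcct
Rpl14 (chr9:120571507-120571536, plus strand): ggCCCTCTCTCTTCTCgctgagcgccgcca
Rps15 (chr10:80292421-80292450, plus strand): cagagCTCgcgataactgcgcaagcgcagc
Rps2 (chr17:24720053-24720082, plus strand): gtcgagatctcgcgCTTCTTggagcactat
Rpl15 (chr14:18270967-18270996, minus strand): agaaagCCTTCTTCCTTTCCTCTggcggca
Rps9 (chr7:3704031-3704060, plus strand): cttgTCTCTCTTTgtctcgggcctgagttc
Rpl9 (chr5:65391412-65391441, minus strand): gggCCCTgacggattacaagaacgtgatga
Rps27 (chr3:90213629-90213658, minus strand): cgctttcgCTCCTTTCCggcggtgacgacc
Rpl23 (chr11:97782420-97782449, minus strand): gTCCggtcacgtggctgagtgggcggggcc
Rps25 (chr9:44407704-44407733, plus strand): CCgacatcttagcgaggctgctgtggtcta
Rps15a (chr7:118116128-118116157, minus strand): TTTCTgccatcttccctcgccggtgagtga
The run is 11 bases long in Rps18, 14 in Rpl14, 17 in Rpl15 and 9 in Rps9 and Rps27, and 6 in Rps2, 4 in Rpl9 and 3 in Rps15 and Rpl23. In Rps25 (14) and Rps15a (10) the run begins before the stretch shown. The marked run spans the annotated start in Rps18, Rpl14, Rpl15, Rps9 and Rps27. In the others it lies wholly before the start or, in Rps2, after it, so its length is not that of a TOP sequence there. A shorter run that is not marked spans the annotated start in Rps15a (tcttccctc) and in Rps2 (tctc). The counts over all members with a promoter are given further on.

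None of the ribosomal protein genes differed by 2-fold or more. Of the 78 members well above background on both arrays, 0 were higher and 0 were lower by 2-fold or more in the diabetic sample, where 11.0% of all 15192 genes with a ratio were higher and 10.1% were lower. Members are bright, with 76 of the 78 at a mean intensity of 1000 or more, and in that range 1.73% of the 1969 genes were higher and 1.02% lower by that much. Both counts of 0 lie close to these shares, which therefore say little about the members as such. The limit of 1000 was chosen after the intensities had been seen. Intensities of the 76 ran from 1191 to 36115 in the nondiabetic and from 1204 to 41847 in the diabetic sample, with 0 saturated spots.

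The ratios of the members lay close together. Their median was -0.09, beside 0.02 over all genes, and their interquartile range was 0.26, beside 0.88 over all genes and 0.42 over the 1893 other genes at an intensity of 1000 or more. Of the 78 members, 57 (73.1%) lay within 0.2 of 0 on the log2 scale, beside 26.6% of all genes and 49.9% of the other bright genes. The ratio was past the software's error in 20 members (25.6%), 15 lower and 5 higher, beside 67.0% of all genes and 49.0% of the other bright genes. The limit of 1000 is a floor and does not match brightness, since the members' median intensity was 9416 in the nondiabetic and 9686 in the diabetic sample. Over all probes the interquartile range was 0.99 under an intensity of 1000 and 0.36 at 1000 or more. The part of brightness in the narrow spread of the members was not tested. The most extreme members were Rpl3 at -0.45 and Rps2 at 0.81.

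**Figure D1:**
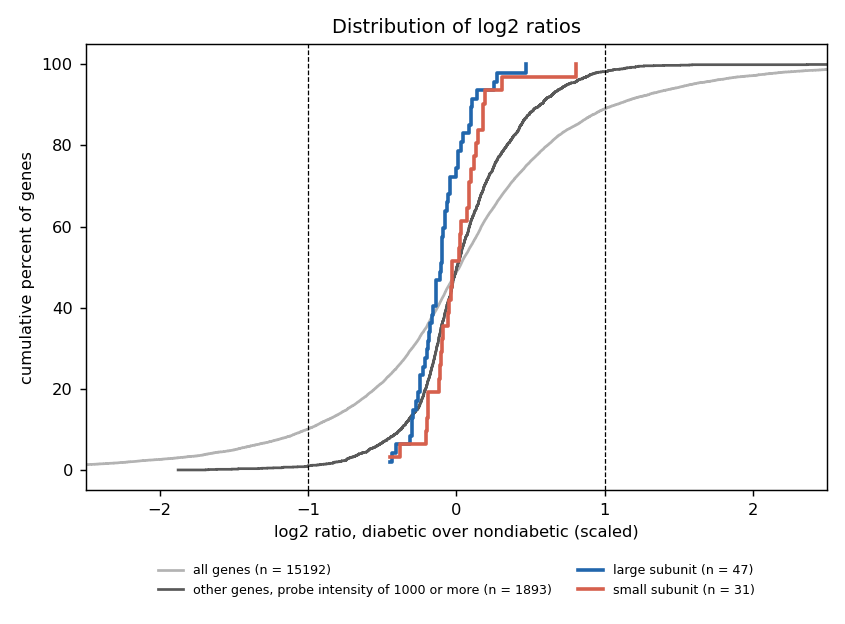
Cumulative share of genes (vertical axis) by log2 ratio of diabetic over nondiabetic intensity (horizontal axis, cropped at the edges) for the large and the small subunit, all genes, and other genes at an intensity of 1000 or more. The curves of both subunits are the steepest, and together the members had an interquartile range of 0.26 beside 0.42 for other genes at an intensity of 1000 or more.

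The cumulative plot shows how few members lie away from 0, with nearly the whole rise of both curves between -0.45 and 0.47. Other families of protein complexes were compared by their counts. Of the 77 genes for proteins of the mitochondrial ribosome, 5 were higher and 5 lower by 2-fold or more, with a median of 0.09 and an interquartile range of 0.80, where 11.0% of all genes were higher and 10.1% lower. Of the 46 proteasome genes with a ratio, 2 were higher and 1 was lower, with a median of 0.01 and an interquartile range of 0.60. An intensity of 1000 or more was reached by 8 of the 77 mitochondrial genes and 21 of the 46 proteasome genes, beside 76 of the 78 members, and the part of brightness in the wider spread was not tested.

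The large subunit had a median of -0.10, and 35 of its 47 measured genes had a ratio below 0. The small subunit had a median of -0.03, and 16 of its 31 genes had a ratio below 0. The median of the large subunit was lower by a log2 difference of -0.08, and between -0.13 and -0.08 under the 9 alternatives given in the closing section. The median of the small subunit turned positive under 5 of these, while that of the large subunit was negative under all 9. With 1 array per condition this difference has no test. Past the software's error were 13 lower and 3 higher genes of the large subunit, and 2 lower and 2 higher genes of the small subunit.

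**Figure D2:**
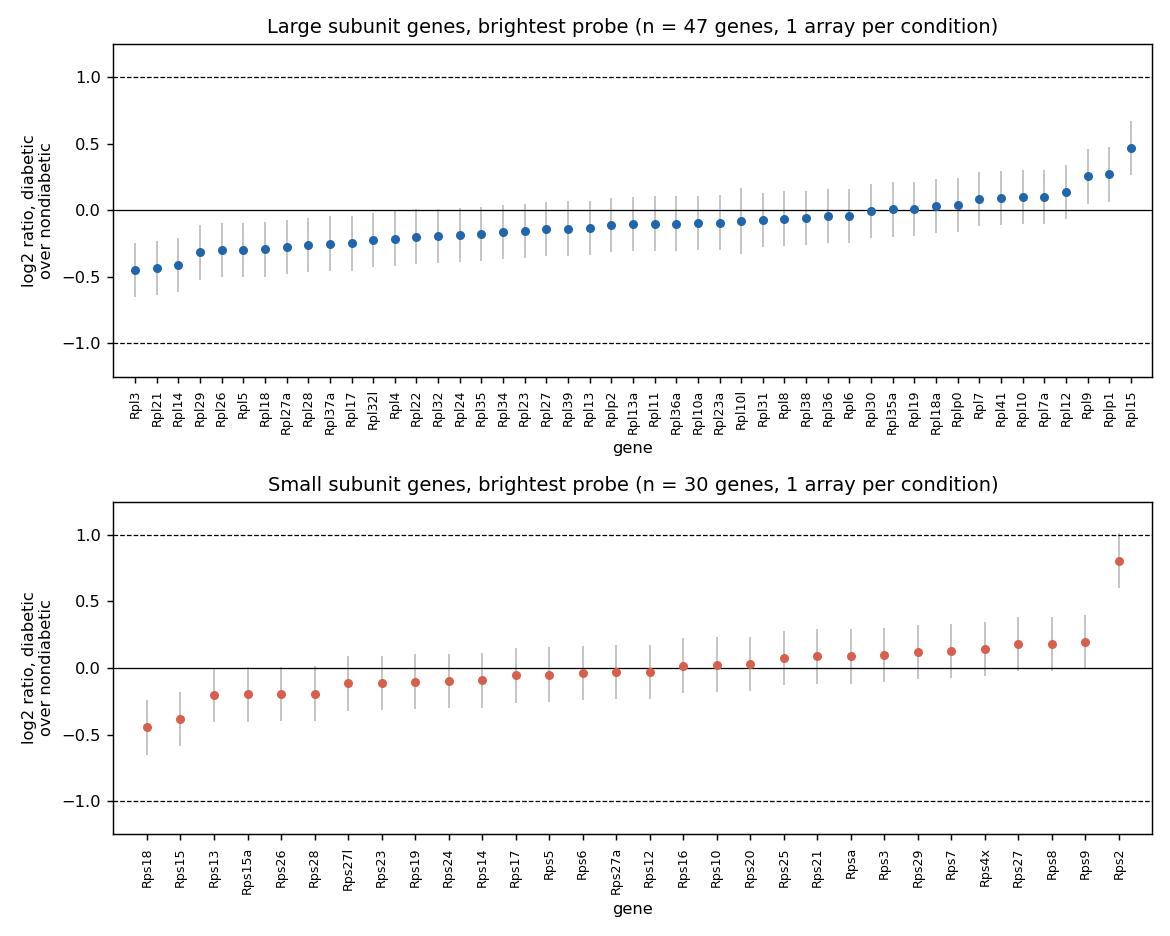
Log2 ratio of diabetic over nondiabetic intensity for 77 of the 78 measured members, by the brightest probe, with the large subunit in blue and the small subunit in red and the software's error as bars. All points lie between -0.45 and 0.81, and no point reaches the dashed lines of 2-fold.

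Rpl3, which lies near the site of peptide bond formation, had the lowest ratio of the large subunit. Its intensity was 6569 in the nondiabetic and 5226 in the diabetic sample, a log2 ratio of -0.45. Rpl21 followed with 4711 and 3785 (-0.43). Its other probes were dim and gave -0.26 (60.0 and 54.2) and 0.55 (20.9 and 33.2). Rpl14 had 6787 and 5543 (-0.41) on its brightest probe, and 376 and 717 (0.81) on a dim one. Of these 3 genes, Rpl21 and Rpl14 therefore had a sign that depended on the probe, in both cases through a dim probe. Rpl3 has only 1 named probe to judge by. Rpl29, Rpl26, Rpl5, Rpl18 and Rpl27a lay between -0.32 and -0.28, with Rpl5 and Rpl18 on 1 probe each.

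In the small subunit the lowest ratios were those of Rps18 and Rps15, proteins of the head of the subunit. Rps18 had an intensity of 18854 in the nondiabetic and 15016 in the diabetic sample (-0.45), and its other probe gave -0.54. Rps15 had 28506 and 23731 (-0.38), and its other probe gave -0.61. Both probes of each gene were lower in the diabetic sample. Rps15 has the short run of pyrimidines shown above, which lies before the start, and Rps18 the long one that spans it.

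The highest ratio belonged to Rps2, a small subunit protein beside the channel where the mRNA enters. Its brightest probe read 2646 in the nondiabetic and 5022 in the diabetic sample (0.81), whereas a second probe of like intensity read 3032 and 3418 (0.06). The first probe was the brightest by its mean over both arrays, whereas on the nondiabetic array the second was brighter. The highest value among the members was thus seen with 1 of the probes of its gene, and that probe was chosen partly through its high diabetic value. Rpl15, a gene of Diamond-Blackfan anemia, had 6470 and 9698 (0.47), and 0.11 on another probe. Rplp1, of the P stalk, had 3532 and 4620 (0.27) on its only named probe.

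Rpl9 and Rps27 were higher by small amounts on every probe they have. Rpl9 had 19378 and 25085 (0.26), and 0.32 on its second probe. Rps27 had 9868 and 12127 (0.18), and its other 3 probes gave 0.19, 0.24 and 0.25. All of these lie well under 2-fold. Rpl41, the smallest protein of the ribosome, had 36115 and 41847 (0.10).

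Functional groups within the ribosome share the members' count of 0 past 2-fold and are given by their values. The P stalk, on which elongation factors land, is made of Rplp0 (0.04), Rplp1 (0.27) and Rplp2 (-0.11). Rpl5 (-0.30) and Rpl11 (-0.10) bind the 5S ribosomal RNA and, off the ribosome, the p53 regulator Mdm2. The 9 genes for proteins that line or surround the exit tunnel had a median of -0.18, and 8 of them were below 0, with a range from -0.30 to 0.01. All 9 belong to the large subunit, of which 35 of 47 (74.5%) were below 0 with a median of -0.10, and the lists were drawn up with earlier results of these data known.

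Of the 19 Diamond-Blackfan anemia genes among the members, 0 passed 2-fold in either direction. All 19 were at an intensity of 1000 or more, where 1.73% of genes were higher and 1.02% lower, so that the count of 0 is near that background. Their median was -0.10, 13 were below 0, and the range ran from -0.30 to 0.47. Rps19, the gene most often mutated in that disease, had an intensity of 1191 in the nondiabetic and 1204 in the diabetic sample (-0.10). Rps14, whose loss underlies the anemia of the 5q- syndrome, had 5862 and 5963 (-0.09). Both differences were smaller than the SD between spots.

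Members known for expression outside the usual ribosome stood apart by their low intensity. Rpl10l, a copy of Rpl10 expressed in testis, had 31.5 in the nondiabetic and 32.3 in the diabetic sample (-0.08), on a probe well above background on both arrays. Rps27l, a copy of Rps27 that p53 induces, had 399 and 400.01 (-0.11). Rpl3l, a copy of Rpl3 found in muscle (2.51 and 2.42), and Rpl39l, a copy of Rpl39 found in testis (11.0 and 3.77), were not well above background on either array and have no ratio. These 4 genes account for all members under an intensity of 1000.

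What was read for a member depended on the probe. Of the 163 member probes with a ratio or a bound, 2 were higher and 2 lower by 2-fold or more, where 11.2% of all 37791 probes were higher and 11.2% lower. All 4 were among the 24 member probes with a ratio under an intensity of 1000, where 12.5% of all probes were higher and 12.5% lower. Of the 139 member probes at 1000 or more, 0 differed so, where 1.07% of all such probes were higher and 1.09% lower. The median of the dim member probes was 0.27 with an interquartile range of 0.69, and that of the bright ones -0.06 with an interquartile range of 0.28. By the start of the probe's identifier, the median was 0.47 over 6 member probes of A_51, 0.64 over 6 of A_52, -0.06 over 144 of A_55 and -0.06 over 7 of A_66. The 6 of A_52 ran from -2.43, a bound, to 1.62. Most member probes of A_51 and A_52 were under an intensity of 1000, so that identifier and brightness cannot be told apart here.

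**Figure D3:**
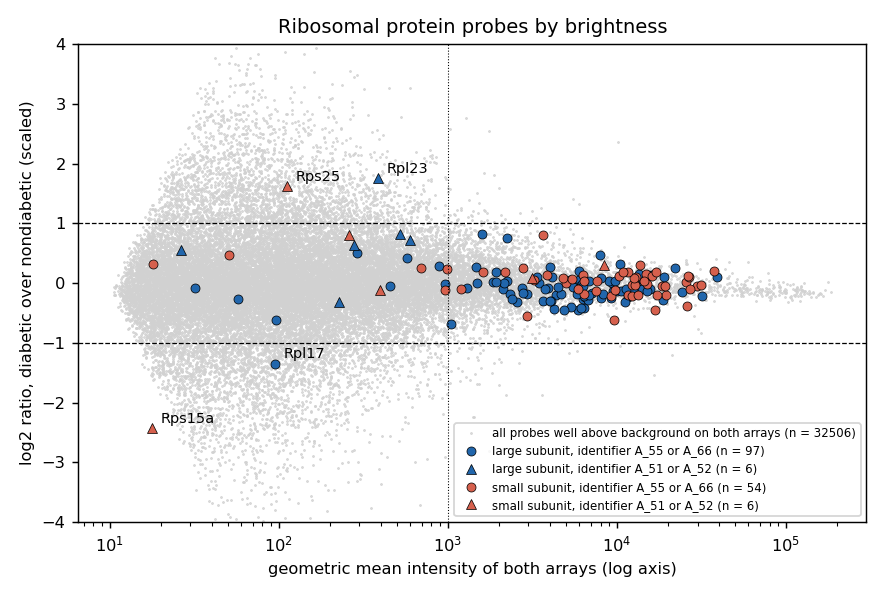
Log2 ratio of diabetic over nondiabetic intensity (vertical axis, cropped) against mean intensity (log axis) for the probes of ribosomal protein genes, in colour (triangles for identifiers that begin with A_51 or A_52), over all probes in grey, with Rps15a at its bound. The 4 member probes past 2-fold all lie under an intensity of 1000, and the 139 above it lie between -0.68 and 0.82.

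Rpl23, a large subunit protein that faces the small subunit, had the most repeated evidence of such a disagreement. Its dim probe A_51_P108190 was printed 10 times. The lowest, median and highest spot read 186, 203 and 219 on the nondiabetic array. On the diabetic array they read 694, 721 and 804. The log2 ratio was 1.75 with an SD of 0.08 between spots. The bright probes of the same gene read 24612 and 23932 (-0.16) and 19925 and 17796 (-0.28). The dim probe was thus higher and both bright probes were slightly lower in the diabetic sample, and the SD between spots measures none of this.

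**Figure D4:**
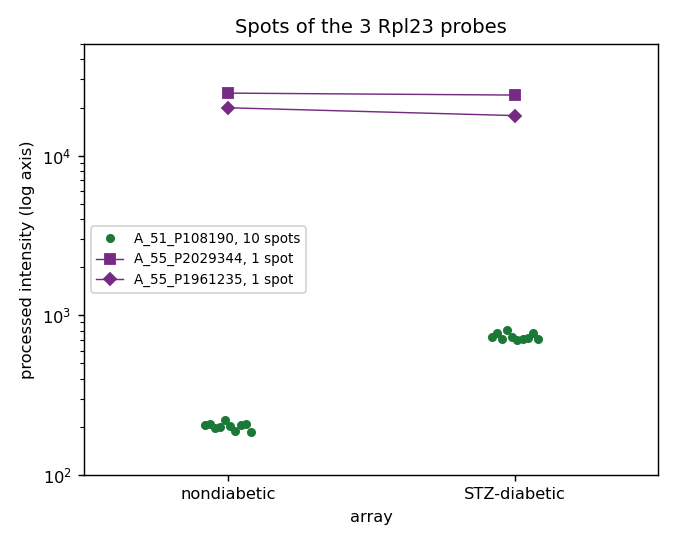
Intensity (log axis) of the spots of each probe of Rpl23 on the nondiabetic and the diabetic array. The 10 spots of the dim probe run from 186 to 219 and from 694 to 804, while the bright probes differ little between the arrays.

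The other 3 probes past 2-fold were of the same kind. Rps25, a small subunit protein used by some viral mRNAs to start translation, had 61.2 in the nondiabetic and 203 in the diabetic sample (1.62) on a dim probe and 5079 and 5800 (0.07) on its bright one. Rpl17 had 145 and 62.0 (-1.35) on its dimmest probe, and its 6 others lay between -0.42 and -0.18. A dim probe of Rps15a read 50.1 in the nondiabetic sample and 6.33, not well above background, in the diabetic sample, which is at least 5.40-fold lower, whereas its other probes gave -0.20 and -0.19. In each case the bright probes were under 2-fold.

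Among the 50 members with several measured probes, the median distance between the highest and the lowest ratio of a gene was 0.17, and in 5 it was over 2-fold, namely Rps15a, Rpl23, Rps25, Rpl14 and Rpl17. Over all 3846 genes with several measured probes the median distance was 0.75, and 1544 (40.1%) were past 2-fold. Among probes of intensity 1000 or more, the distances were 0.10 in 45 members, with 0 past 2-fold, and 0.19 in all 237 such genes, with 11 (4.64%) past it. The widest of these in a member was that of Rpl13a, which has a further role in silencing inflammatory mRNAs, with -0.10 on its brightest probe and 0.75 and 0.82 on others. Probes of 14 members had opposite signs.

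**Figure D5:**
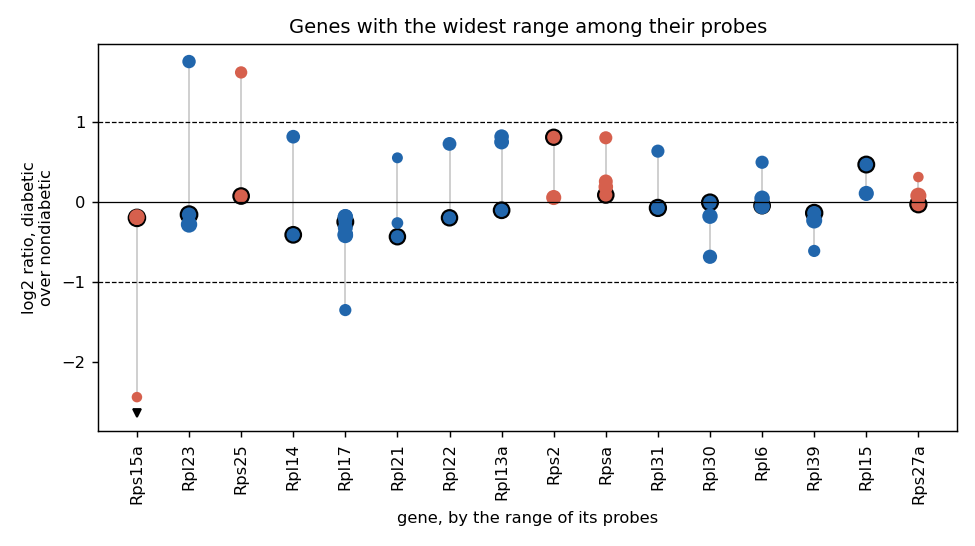
Log2 ratio of every measured probe for the 16 members with the widest distance between probes, with larger points for brighter probes and a black outline for the brightest probe of each gene. The distance is widest for Rps15a, whose arrow marks a bound, and for Rpl23 and Rps25, and in each of these the outlined probe lies near 0.

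The brightest and the next probe of a gene were also set against each other, across genes. Among the 45 members with several probes at 1000 or more, Pearson's r was 0.58 and Spearman's rho 0.76, and 39 had the same sign. Among all 237 genes with such probes, r was 0.34 and rho 0.41, and 159 had the same sign. With dim probes included, r was 0.29 and rho 0.59 over 50 members, 41 of the same sign, and r 0.13 and rho 0.13 over 3245 genes, 1806 of the same sign. Genes are not independent replicates, all of these ratios come from the same arrays, and probes of a gene can overlap in sequence, so these are descriptions.

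The promoters were searched for letters that the choice of members did not use, and most of the motifs were absent from most member promoters. Promoters from 250 bases before to 50 bases after the start were at hand for 60 of the 80 members, 72 promoters in all. A run of at least 8 pyrimidines on the gene's strand was sought that touched the 10 bases on either side of the start. It need not hold the start itself. Such a run was found in 30 of the 72 (41.7%), beside 13.7% of all 32851 promoters. On either strand, CCGGAAG, letters that Ets factors can bind, was in 34.7% beside 8.86% of all, and AAGATGG, which Yy1 can bind, in 15.3% beside 6.34%. GGGCGG, which Sp1 can bind, was in 56.9% beside 35.7%, and TATAAA in 9.72% beside 13.6%. CCGGAAG and AAGATGG share letters and can overlap, which occurred in 0 member promoters.

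The ratios of the members with and without these letters were set side by side, with no test. The median was -0.11 in the 29 measured members with a run of pyrimidines and -0.09 in the 29 without one. It was -0.06 with and -0.10 without CCGGAAG, 0.01 with and -0.10 without AAGATGG, -0.08 with and -0.18 without GGGCGG, and -0.14 with and -0.10 without TATAAA. In each of these groups ratios ran from below 0 to above it.

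Other mRNAs with a TOP sequence, those of elongation and initiation factors and some other proteins, were also without a 2-fold difference. Of the 15 looked up, 0 were higher and 0 lower, with a median of -0.05 and a range from -0.54 for Eif4b to 0.37 for Eef1g. At an intensity of 1000 or more were 13 of the 15, where 1.73% of genes were higher and 1.02% lower, and the count of 0 is near that background. Of 7 genes for the control of TOP mRNA translation, 0 were past 2-fold, where 11.0% of all genes were higher and 10.1% lower. With 2 of the 7 at an intensity of 1000 or more and so few genes, this count says little. Larp1, which binds the TOP sequence, had 1551 in the nondiabetic and 2543 in the diabetic sample (0.60).

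Genes that build ribosomes were looked up as well. Of 41 ribosome assembly factors, 5 were higher and 6 lower by 2-fold or more, with a median of -0.15, beside 11.0% higher and 10.1% lower of all genes, and these counts are near that background. The highest were Efl1, which releases the factor that keeps young large subunits from joining, with 33.4 in the nondiabetic and 108 in the diabetic sample (1.58), and Rrp12 (1.48). The lowest were the rRNA methyltransferase Nop2 with 351 and 78.6 (-2.27) and Tsr1 (-1.42). Most of these were read on dim probes. Of the 11 factors at an intensity of 1000 or more, 1 was past 2-fold, Mrto4, which helps to build the P stalk, with 2740 and 1416 (-1.07), where 1.73% of all such genes were higher and 1.02% lower.

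Of the 15 genes for RNA polymerase I and its factors, which transcribe ribosomal RNA, Taf1b was at least 2-fold higher (57.4 and 170, 1.45) and Polr1e at least 2-fold lower (119 and 28.8, -2.17). Of 5 dedicated chaperones of ribosomal proteins, Tsr2, the partner of Rps26, was higher (15.1 and 43.0, 1.40). All 3 were read under an intensity of 1000, where 12.5% of all probes were higher and 12.5% lower.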

How the data were processed

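The authors deposited, for each of the 2 arrays, Agilent Feature Extraction 11.5.1.1 output with processed intensities, background-corrected within the array and not scaled between arrays, and a table whose columns equal these intensities times 1 constant per array (log2 factors of 3.48 and 3.35). The build of the array's grid is mm9, and none of its coordinates were used. Here, log2 intensity was used after subtracting the 75th percentile of each array's spots that were not controls (168 and 182). Outlier-marked spots on either array were left out (314 of 59305, of the members 0), and spots of a probe were averaged. A probe counted as well above background when most of its spots were flagged so. A probe so on 1 array has a bound against the lowest such intensity (10.2 and 10.1) or its own if higher. The probe with the highest mean log2 intensity over both arrays (the brightest probe) stood for a gene. Transcript identifiers matched to RefSeq (GRCm38.p6) named 53.7% of spots. No exact test is possible with 1 array per condition, and the number of arrays limits the precision. Members, lists and named genes (the highest and lowest members, members with disagreeing probes and the largest moves per list) were chosen with earlier results of these data known. RefSeq names 320 loci as pseudogenes of 61 members, and whether their transcripts bind the members' probes was not tested. A member that is not reported here enters the counts and medians. The steps were tested on simulated data. Python 3.11.15, numpy 2.4.6, pandas 2.3.3, scipy 1.17.1, matplotlib 3.10.9, R 4.3.3 and limma 3.58.1 were used.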

Additional observations from a re-analysis of the deposited data

How the results depend on the processing

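No paired analysis was possible because the nondiabetic and the diabetic mice have 1 array each, and leaving out a replicate was not possible for the same reason. The 9 alternatives were normexp background correction (offset 50, on the median spot intensity), quantile normalization, centring on the median ratio, loess, no filter on dim probes, a stricter one that keeps probes flagged on both arrays, the mean of a gene's probes, the dimmest probe, and the authors' table as deposited. The median of the members stayed negative, from -0.10 to -0.04. That of the large subunit stayed between -0.12 and -0.06, while that of the small subunit, -0.03, became 0.02 with normexp, 0.04 with quantile normalization, 0.04 with loess, 0.03 with the mean and 0.03 with the dimmest probe. With normexp, 597 genes were higher and 497 lower by 2-fold or more, beside 1667 and 1538, and 0 member probes were lower, beside 2. With no filter on dim probes, 1 member was lower (Rpl39l, -1.67). With the stricter filter, 1 member probe was lower. With the dimmest probe, 2 members were higher and 1 lower. Single members moved by the SD between spots (0.13) or more in 2 of 78 with normexp, 16 with the mean over probes and 25 with the dimmest probe, and in 0 with the other 6. The cause of these differences was not tested.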

Other observations

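Genes of ribosomal proteins and their paralogs that lie outside the rule gave ratios within the range of the members, except Rpl7l1. Fau, which encodes a small subunit protein fused to a ubiquitin-like protein, had an intensity of 45495 in the nondiabetic and 44420 in the diabetic sample (log2 ratio -0.15). Rack1, a scaffold on the small subunit, had 7098 and 7071 (-0.12). The paralogs Rpl36al and Rpl22l1 had -0.18 and 0.18. Rpl7l1 had 27.7 and 19.5 (-0.62), which is below the lowest member (-0.45). Rps4l, which RefSeq lists as a transcribed pseudogene and which is left out for that reason, had 80.7 and 65.7 (-0.42). All 6 of these were under 2-fold, where 11.0% of all genes were higher and 10.1% lower, and so small a count says little.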
